A study of Mus musculus with 6 samples.

Results

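Cholesterol and fatty acid synthesis genes were described across the leukocytes of the lung in 2 single-cell RNA libraries, one from mice treated with a PD-1 agonist and one from mice treated with an isotype control. The 33 genes were taken from a list of pathway members, and all of them had a column among the 20882 gene columns of the deposited tables. They comprised 7 genes of the mevalonate arm, 10 of the sterol arm, 5 that control the SREBP transcription factors, 10 of the fatty acid arm and 1 sterol transport gene. The study, titled for neutrophilic asthma, used mice of a humanized PD-1 strain, in which the inhibitory receptor PD-1 of activated T cells is replaced by its human form, and both groups carried it. Both groups were 6 to 8 weeks old, and live lung cells positive for CD45, the surface protein shared by leukocytes, were sorted from them. Per the labels, cells of 3 mice per treatment were mixed with hashing antibodies, about 50000 cells per treatment, and run on the 10x Chromium platform. The way asthma was induced and the dose and timing of the antibodies were not stated in the labels.

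Cells make cholesterol from acetyl-CoA. The mevalonate arm builds isoprenoid units and joins them to farnesyl diphosphate, and the sterol arm turns that product into squalene, lanosterol and finally cholesterol. Fatty acids start from the same acetyl-CoA, which is carboxylated and polymerised to palmitate and then elongated and desaturated. SREBP transcription factors switch on both pathways when membrane sterol is low, while Insig proteins hold them back in the endoplasmic reticulum when sterol is high. In immune cells these pathways are known for supplying membrane to dividing lymphocytes and for setting the lipid content of macrophages and dendritic cells.

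Each treatment was treated as 1 sample. The 3 tables labelled as mice of a treatment shared 2373 to 2736 barcodes in any pair, against 3 to 13 barcodes between tables of different treatments, so the tables are not independent animals. Each barcode was used once per treatment. After the authors' own cell filter and removal of doublets, 11272 cells were kept for PD-1 agonist and 10299 for isotype, with medians of 2227.5 and 2535 counts per cell. No difference between treatments therefore has a replicate check, no test between them was made, and effects of treatment and of library cannot be told apart. The 95% intervals given here are exact ones for counts, and they cover counting error only. Cells were clustered without the 33 genes among the variable genes, which left 19 marker-named classes, each called "-like", and 4.05% and 4.56% of cells unnamed. Ptprc, which encodes CD45, was found in all classes, from 536 CPM in PD-1 agonist and 483 CPM in isotype migratory dendritic cell-like cells to 3416 and 3306 CPM in NK cell-like cells. Lists of epithelial and fibroblast markers summed to 7.98 and 6.09 CPM in all kept PD-1 agonist cells and to 6.88 and 6.28 CPM in isotype cells.

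Levels are given as CPM, the counts of a gene scaled to a common class total. TMM factors, from 0.986 to 1.014, adjusted the 2 libraries of a class to each other, and no factor adjusted different classes to each other. A gene was counted as high in a class when its level was at least 2-fold above the median of the other 18 named classes in both libraries, with more than 3 counts in each. These are descriptions of cells within 2 libraries, and no test was made between classes, since cells are not replicates. By this rule 24 of the 33 genes were high in at least 1 class, and 9 were high in none. The share of all genes high in at least 1 class was not computed, so this count has no background. In single classes 5.02% to 14.2% of all genes were high. The 3 dendritic cell classes stood out in number. Of the 33 genes, 22 were high in at least 1 of them, against 21.7% of all 15127 genes tested, and 9 were high in all 3, against 1.64%.

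**Figure D1:**
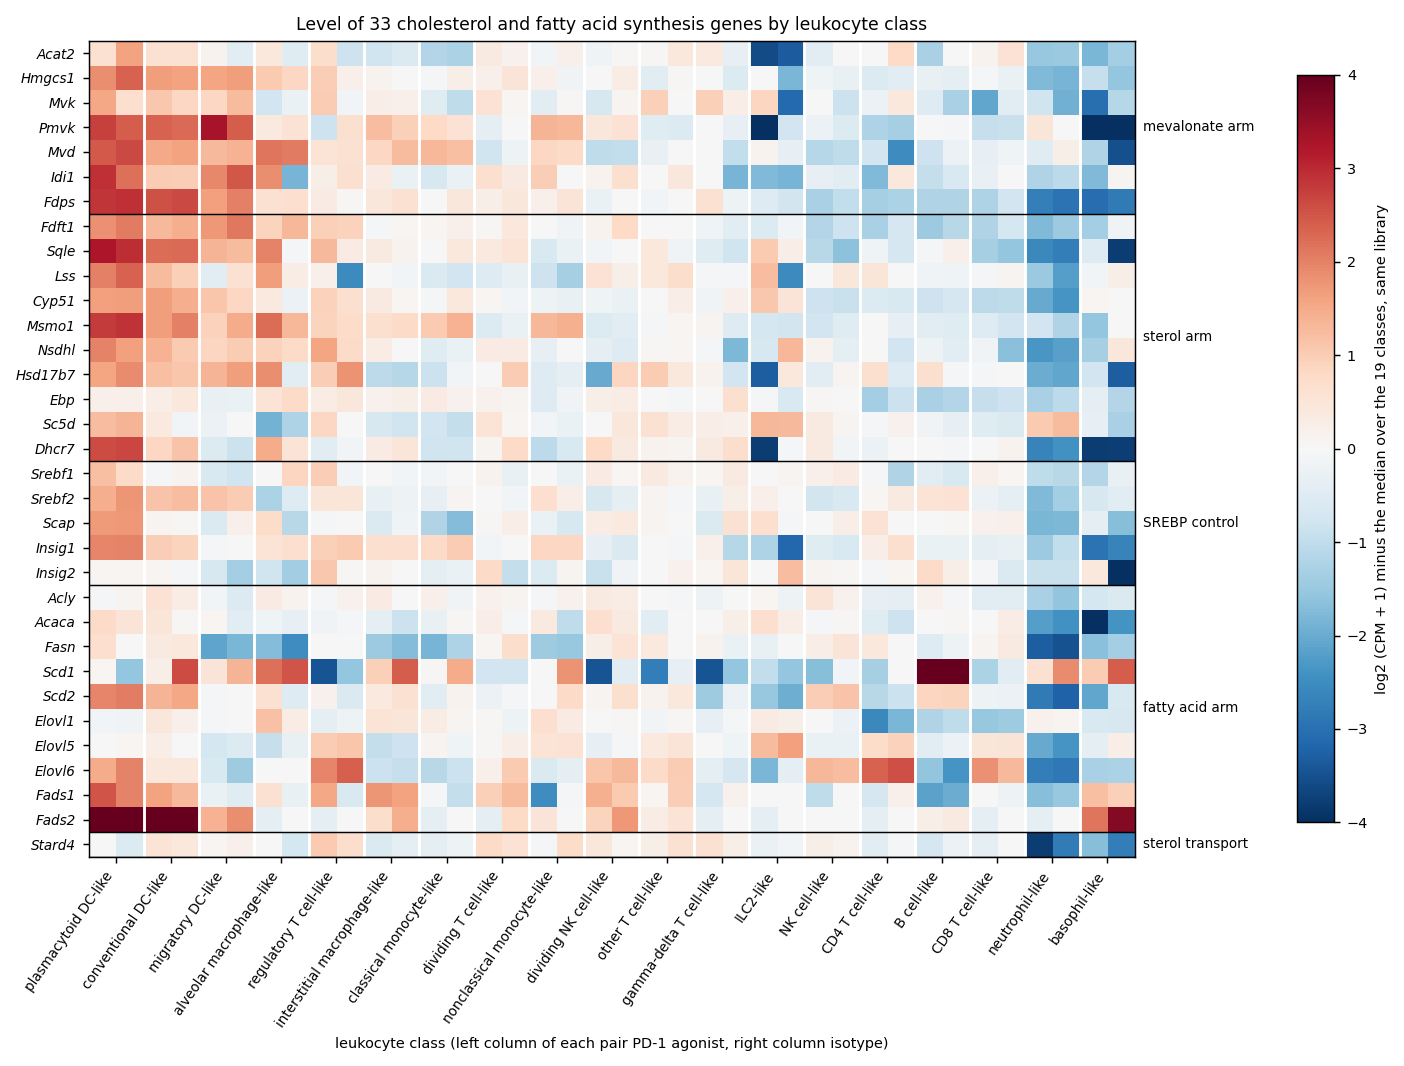
Levels of the 33 genes (vertical, grouped by arm) in 19 leukocyte classes (horizontal, ordered by the summed level of the mevalonate and sterol arms), as log2 of CPM plus 1 minus the median over the classes of the same library; the left column of each pair is PD-1 agonist and the right column isotype. The plasmacytoid and conventional dendritic columns at the left are red for most sterol genes, and single red cells further right mark Scd1 in B cell-like cells and Elovl6 in CD4, CD8 and regulatory T cell-like cells.

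Plasmacytoid dendritic cell-like cells, the interferon-producing lineage led here by Siglech, held the largest number. In them 21 of the 33 genes were high, against 10.1% of all genes tested, and 14 of these belonged to the 17 genes of the mevalonate and sterol arms. The median gene of the 33 stood at 3.36 times the median of the other classes in the PD-1 agonist library and 3.73 times in the isotype library, where the median of all genes stood at 1.05 and 1.02. Conventional dendritic cell-like cells, the antigen-presenting lineage, followed with 16 of 33 against 11.0% of all genes, and 12 of these were mevalonate or sterol genes. Their single cluster held markers of both the cDC1 and the cDC2 subset, which were not separated. Migratory dendritic cell-like cells, led by Ccl22 and Fscn1, had 10 of 33 against 9.45% of all genes, 9 of them mevalonate or sterol genes. In interstitial macrophage-like cells the share was close to the background, with 5 of 33 against 14.2% of all genes. Regulatory T cell-like cells had 4 of 33 (Fdft1, Hsd17b7, Elovl5 and Elovl6) against 5.96%, and 2 to 4 when each table was left out, with 2 without the second PD-1 agonist table. No gene of the 33 was high in gamma-delta T cell-like cells (7.32% of all genes) or in the T cells led by Xcl1 and Ifng (8.4%).

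Neutrophil-like cells, 21.3% of the kept PD-1 agonist cells and 18.9% of the isotype cells, lay at the other end. There the median gene of the 33 stood at 0.242 times the median of the other classes with PD-1 agonist and 0.253 times with isotype, against 0.594 and 0.5995 for all genes. In both libraries 12 of the 33 genes had their lowest level of all classes in neutrophil-like cells. The share of all genes lowest there was not computed, so this count has no background. The exceptions were Sc5d and Scd1, 2 of 33 genes high in neutrophil-like cells against 13.8% of all genes. Neither was high there once the first PD-1 agonist table was left out, or with the finer clustering.

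Summed over the 17 genes of the mevalonate and sterol arms, the level was 1372 CPM in PD-1 agonist and 1490 CPM in isotype plasmacytoid dendritic cell-like cells, which was 3.81 and 3.93 times the median of the other classes. Conventional dendritic cell-like cells had 951 and 992 CPM, and migratory dendritic cell-like cells 794 and 828 CPM. These 3 classes had the highest sums in both libraries. Neutrophil-like cells had 173 and 180 CPM, and basophil-like cells 174 and 163 CPM. The classes also differed in depth, and the part of depth in this order was not tested. Interstitial macrophage-like cells had medians of 5946 and 5867 counts per cell, between those of the dendritic classes (4555 to 6670 with PD-1 agonist, 4911 to 6683 with isotype), and held 2.39 and 2.42 counts of the 17 genes per cell. Plasmacytoid dendritic cell-like cells held 6.10 and 7.55 such counts per cell. The 34 PD-1 agonist and 37 isotype alveolar macrophage-like cells came next, at 672 and 519 CPM, and are too few for a comparison of treatments.

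**Figure D2:**
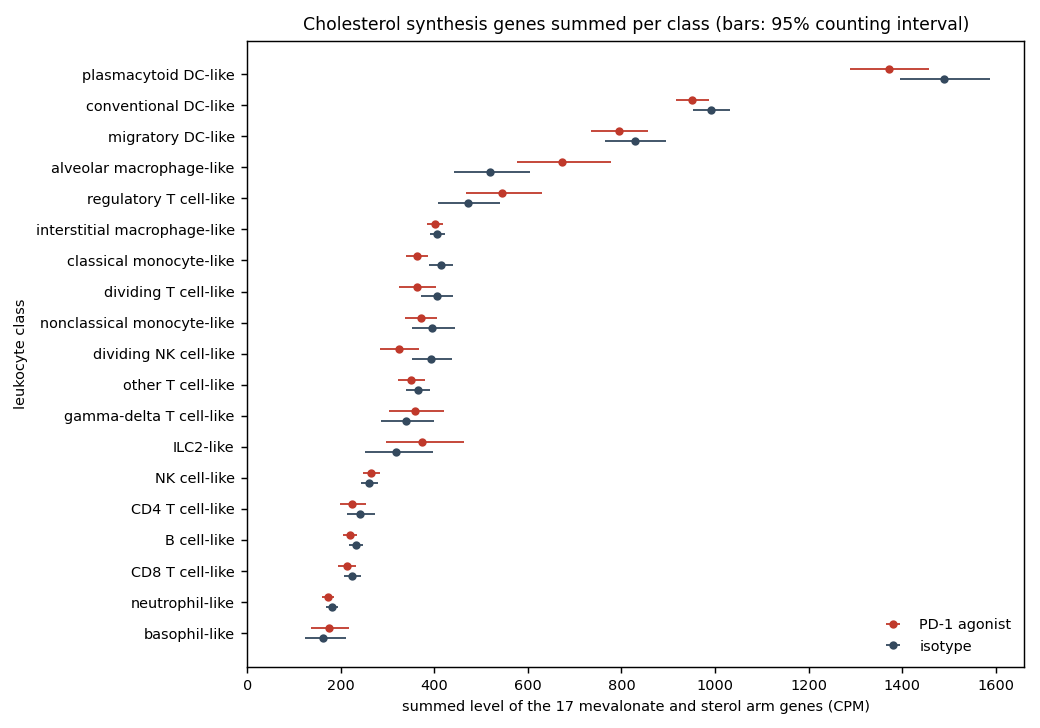
Summed level of the 17 mevalonate and sterol arm genes in CPM (horizontal) for each leukocyte class (vertical), with PD-1 agonist drawn above isotype in each class and bars for the 95% counting interval. The 3 dendritic classes lie between 794 and 1490 CPM, and neutrophil-like and basophil-like cells lie between 163 and 180 CPM.

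The mevalonate arm was highest in dendritic cells at nearly every step. Hmgcs1, which makes HMG-CoA for the arm, was at 154 CPM in PD-1 agonist and 232 CPM in isotype plasmacytoid dendritic cell-like cells. It was at 133 and 138 CPM in conventional and at 125 and 146 CPM in migratory dendritic cell-like cells, against 11.6 and 11.7 CPM in neutrophil-like cells. Fdps, which joins isoprenoid units into farnesyl diphosphate, was at 200 and 210 CPM in plasmacytoid, 160 and 175 CPM in conventional, and 3.14 and 2.60 CPM in neutrophil-like cells. Of its transcript 31-mers, 27.9% also occur in other genes, with Gm43738 and Gm3571 sharing the most. Gm43738 overlaps 77.4% of the Fdps exon bases on the same strand and has no gene column of its own. The part of this overlap and sharing in the Fdps counts was not tested. Mvd, the decarboxylase that yields the first isoprenoid unit, was high in all 3 dendritic classes and also in classical monocyte-like, interstitial macrophage-like and alveolar macrophage-like cells. The isomerase Idi1 was measured at low counts, with 25.3 CPM from 19 counts and 15.9 CPM from 10 counts in plasmacytoid dendritic cell-like cells. Mvk, the kinase that first phosphorylates mevalonate, met the rule for high in both libraries only in migratory dendritic cell-like cells, at 13.3 and 19.6 CPM. It was at 22.6 and 12.7 CPM in plasmacytoid and 15.9 and 14.4 CPM in conventional dendritic cell-like cells, and the intervals of the 3 classes overlap. Acat2, which starts the arm by joining acetyl-CoA units, was high in no class, and 43.8% of its 31-mers are shared, mainly with Acat3.

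Pmvk, the kinase that follows Mvk, had a different order. It was highest in migratory dendritic cell-like cells in the PD-1 agonist library, at 178 CPM, with 115 CPM in isotype cells of that class. Plasmacytoid dendritic cell-like cells had 118 and 115 CPM, and conventional dendritic cell-like cells 91.4 and 103 CPM. All 6 values lay above those of the other 16 classes, where the highest was 54.1 CPM, in isotype nonclassical monocyte-like cells. No count was found in basophil-like cells, which allows up to 7.14 CPM with PD-1 agonist and 8.87 CPM with isotype at 3 counts.

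Promoter windows of 250 bases before the start were available for 26 of the 33 genes from RefSeq on build GRCm38.p6, with 35 windows in all, since some genes have several starts. A gene was counted when any of its windows held a match. The 7 without an entry were Fdps, Fdft1, Sqle, Scd1, Scd2, Fads1 and Stard4. The windows were searched on both strands for TCACNCCAC, a form of the sterol regulatory element bound by SREBPs, and for CCAAT, the box bound by NF-Y, a factor known to act beside SREBPs. CCAAT was found in 20 of 26 genes (76.9%), against 37.5% of all 27025 genes with a window. TCACNCCAC was found in 1 of 26 (3.85%), Hmgcs1, against 1.23% of all genes. CACGTG, the E-box that SREBPs can also bind, was found in 6 of 26 (23.1%) against 6.86%. The windows of 5 genes are shown because these genes carry the class patterns described here, and all 5 were high in plasmacytoid dendritic cell-like cells. Hmgcs1 (chr13:119690101-119690350, plus strand), Idi1 (chr13:8885356-8885605, plus strand) and Msmo1 (chr8:64733579-64733828, minus strand) belong to the mevalonate and sterol arms. Fads2 (chr19:10101504-10101753, minus strand) and Elovl6 (chr3:129532136-129532385, plus strand) belong to the fatty acid arm. Each is written in the direction of transcription and ends at the base before the RefSeq start. The GENCODE start lies inside the windows of Idi1 (chr13:8885501), Msmo1 (chr8:64733792), Fads2 (chr19:10101746) and Elovl6 (chr3:129532355). These windows therefore lie partly within the gene as GENCODE gives it, and those of Msmo1 and Fads2 for the most part. Capitals mark CCAAT or its reverse complement ATTGG and, in Hmgcs1, TCACCCCAC, which begins 137 bases before the start and overlaps none of the boxes.
Hmgcs1: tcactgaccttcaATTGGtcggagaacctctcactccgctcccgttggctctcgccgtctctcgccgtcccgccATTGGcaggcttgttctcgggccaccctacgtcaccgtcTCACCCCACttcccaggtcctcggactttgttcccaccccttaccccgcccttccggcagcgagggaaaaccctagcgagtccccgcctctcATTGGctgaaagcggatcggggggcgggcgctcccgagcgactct
Idi1: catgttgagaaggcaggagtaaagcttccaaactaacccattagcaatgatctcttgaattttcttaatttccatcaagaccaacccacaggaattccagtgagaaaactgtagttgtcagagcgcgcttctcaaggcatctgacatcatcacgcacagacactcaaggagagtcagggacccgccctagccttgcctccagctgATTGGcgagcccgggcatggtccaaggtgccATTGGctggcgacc
Msmo1: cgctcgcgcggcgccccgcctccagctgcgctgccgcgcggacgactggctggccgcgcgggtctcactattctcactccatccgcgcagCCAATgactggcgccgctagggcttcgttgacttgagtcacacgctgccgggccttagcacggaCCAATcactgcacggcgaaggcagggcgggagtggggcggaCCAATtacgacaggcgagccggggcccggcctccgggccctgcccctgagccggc
Fads2: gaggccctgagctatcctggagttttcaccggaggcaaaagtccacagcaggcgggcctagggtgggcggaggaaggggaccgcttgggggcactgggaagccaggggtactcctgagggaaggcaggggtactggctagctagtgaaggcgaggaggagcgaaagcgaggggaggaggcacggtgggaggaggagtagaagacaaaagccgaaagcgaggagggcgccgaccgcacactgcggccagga
Elovl6: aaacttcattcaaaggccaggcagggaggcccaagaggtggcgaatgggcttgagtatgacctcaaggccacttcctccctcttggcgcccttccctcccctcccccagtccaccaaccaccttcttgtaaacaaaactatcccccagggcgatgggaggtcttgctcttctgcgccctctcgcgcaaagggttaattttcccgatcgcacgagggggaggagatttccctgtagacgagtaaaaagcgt
The Hmgcs1 window held 3 CCAAT boxes, that of Msmo1 3 and that of Idi1 2, while those of Fads2 and Elovl6 held no match to either motif. A match in letters is not a bound site, and a window without a match says nothing about the factor.

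In the sterol arm, 9 of 10 genes were high in plasmacytoid dendritic cell-like cells, 7 of these also in conventional ones, and Ebp was high in no class. Sqle, the squalene epoxidase and a rate-limiting step of the arm, was at 108 CPM in PD-1 agonist and 107 CPM in isotype plasmacytoid dendritic cell-like cells. It was at 53.3 and 66.4 CPM in conventional dendritic cell-like cells and at 0.965 and 1.04 CPM in neutrophil-like cells. Msmo1, the methylsterol oxidase, was at 162 and 159 CPM in plasmacytoid and 74.5 and 87.1 CPM in conventional dendritic cell-like cells, and was high in classical and nonclassical monocyte-like and alveolar macrophage-like cells as well. Cyp51, the lanosterol demethylase, was at 134 and 145 CPM in plasmacytoid and 139 and 124 CPM in conventional dendritic cell-like cells, values that overlap between the classes. Dhcr7, which reduces the last double bond on the way to cholesterol, was high in plasmacytoid dendritic cell-like cells and in no other class. It was at 83.8 and 85.9 CPM in plasmacytoid dendritic cell-like cells, against 23.6 and 28.9 CPM in conventional and 8.47 and 6.53 CPM in migratory dendritic cell-like cells. With PD-1 agonist the second class was the small alveolar macrophage-like class, at 37.8 CPM, and its interval overlaps that of plasmacytoid dendritic cell-like cells.

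Fdft1, the squalene synthase, was at 51.9 and 58.9 CPM in plasmacytoid, 35.6 and 37.5 CPM in conventional and 48.4 and 60.1 CPM in migratory dendritic cell-like cells. It shares 20.9% of its exon bases, on the opposite strand, with Ctsb, and whether counting used the strand is not given in the sources used here. Ctsb was at 1526 and 1541 CPM in plasmacytoid and at 239 and 222 CPM in migratory dendritic cell-like cells. It was highest of the named classes in nonclassical monocyte-like cells at 2065 and 2145 CPM, where Fdft1 was at 14.1 and 11.9 CPM. The part of this overlap in the Fdft1 counts was not tested. Lss, Nsdhl and Hsd17b7 were high in plasmacytoid and conventional dendritic cell-like cells at lower counts, with 24.0 to 35.0 CPM in plasmacytoid ones over both libraries. Ebp, the sterol isomerase, ranged over the classes from 21.9 to 83.1 CPM with PD-1 agonist and from 26.6 to 103 CPM with isotype.

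Sc5d, the sterol desaturase that acts just before Dhcr7, had the lowest correlation with the rest of the mevalonate and sterol genes across classes. It was at 77.4 and 75.6 CPM in type 2 innate lymphoid cell-like cells, 73.2 and 79.6 CPM in plasmacytoid dendritic cell-like cells and 63.7 and 74.2 CPM in neutrophil-like cells, and the intervals of these classes overlap. Within neutrophil-like cells the level was 84.7 CPM with PD-1 agonist and 110 CPM with isotype in the largest cluster and 31.1 and 45.8 CPM in the second. Across the 19 classes its Spearman correlation with the summed level of the other 16 mevalonate and sterol genes was 0.00 with PD-1 agonist and -0.06 with isotype. For the other 16 genes the same correlation ran from 0.38 to 0.90 with PD-1 agonist and from 0.21 to 0.94 with isotype. It was highest for Fdps in both libraries, and low for Lss, at 0.38 and 0.30, and for Dhcr7, at 0.38 and 0.43. These correlations describe 19 classes that share a library and differ in depth, and have no test.

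Among the genes that control SREBPs, 3 of 5 were high in plasmacytoid dendritic cell-like cells. Srebf2, which encodes the SREBP that mainly drives cholesterol synthesis, was at 205 CPM with PD-1 agonist and 245 CPM with isotype there, 166 and 171 CPM in conventional and 165 and 146 CPM in migratory dendritic cell-like cells. Neutrophil-like cells had 20.98 and 27.3 CPM. Insig1, the retention factor that is itself an SREBP target, was at 173 and 175 CPM in plasmacytoid dendritic cell-like cells, above 88.2 and 81.3 CPM in conventional ones. Scap, the escort that senses sterol, was at 74.5 and 73.2 CPM in plasmacytoid dendritic cell-like cells against 24.4 and 22.3 CPM in conventional ones. The second class was alveolar macrophage-like at 37.8 CPM with PD-1 agonist and gamma-delta T cell-like at 32.9 CPM with isotype. Both intervals overlap those of plasmacytoid dendritic cell-like cells. Scap overlaps an antisense gene by 18.6% of its exon bases, and that gene had no count in plasmacytoid dendritic cell-like cells. The part of this overlap in the Scap counts was not tested. Srebf1, whose main product in many tissues drives fatty acid synthesis, and Insig2 were high in no class. The 5 genes together gave 520 and 557 CPM in plasmacytoid dendritic cell-like and 59.8 and 74.5 CPM in neutrophil-like cells.

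The fatty acid arm did not share 1 order of classes. Its first steps had no class that was high in both libraries. Acly, which makes cytosolic acetyl-CoA from citrate, Acaca, which carboxylates it, and Fasn, the synthase, met the rule in no class, as was true of Elovl1, which elongates very long saturated chains. Fasn was at 63.9 CPM with PD-1 agonist and 39.8 CPM with isotype in plasmacytoid dendritic cell-like cells and at 53.0 and 39.7 CPM in CD4 T cell-like cells, against 3.14 and 2.60 CPM in neutrophil-like cells. Its Spearman correlation over the 19 classes with the summed mevalonate and sterol genes was 0.06 and 0.02. The desaturases and elongases, in contrast, differed from class to class.

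Scd1, the desaturase that makes oleate from stearate, was found mainly in B cell-like cells. It was at 997 CPM with PD-1 agonist (965 to 1028) and 941 CPM with isotype (910 to 973) there, and 75.8% and 78.0% of these cells held a count. The other 18 named classes together had 10.7 and 7.34 CPM, so that B cell-like cells stood 93.0 times (82.9 to 105) and 128 times (112 to 148) above them. Of all Scd1 counts in kept cells, 90.9% and 92.5% came from B cell-like cells, which held 10.77% and 9.81% of all counts. Both B cell clusters had it, at 1129 and 1048 CPM in the cluster led by Igkc and Ighd and 778 and 788 CPM in the cluster led by Igkc and Ms4a1. Cells with at least 1000 counts were also thinned to that depth, which left out 295 of 2137 PD-1 agonist and 194 of 1820 isotype B cell-like cells. Of the thinned B cell-like cells 60.7% and 59.5% held a count, against 0.541% and 0.272% of CD8 T cell-like cells, which had 1.06% and 0.402% before thinning at greater depth. Scd1 was also high by the rule in alveolar macrophage-like, interstitial macrophage-like, basophil-like and neutrophil-like cells, at no more than 49.1 CPM. B cell-like cells had no other gene of the 33 that was high, 1 of 33 against 12.2% of all genes.

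Scd2, the neighbour of Scd1 on chromosome 19 (chr19:44293674-44306864 for Scd2 and chr19:44394455-44407879 for Scd1, on opposite strands, GENCODE annotation of GRCm38), had another order. It was at 212 and 210 CPM in plasmacytoid dendritic cell-like, 141 and 148 CPM in conventional dendritic cell-like and 109 and 112 CPM in NK cell-like cells. B cell-like cells had 99.0 and 92.0 CPM, and neutrophil-like cells 6.75 and 4.43 CPM. Of the 31-mers of Scd1 and Scd2, 8.14% and 6.81% also occur in another gene, mainly Scd3 or each other.

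Fads2, the desaturase that opens the synthesis of polyunsaturated fatty acids, was found mainly in 2 dendritic classes. It was at 140 CPM with PD-1 agonist (114 to 169) and 138 CPM with isotype (111 to 171) in plasmacytoid dendritic cell-like cells, with a count in 42.0% and 43.5% of them. Conventional dendritic cell-like cells had 33.9 and 29.7 CPM. The other 17 named classes together had 16 and 21 counts, or 0.537 and 0.688 CPM, and 8 of them had none in either library. One of these was the neutrophil-like class, where 0 counts allow up to 0.724 and 0.781 CPM at 3 counts. Migratory dendritic cell-like cells had 2.42 and 2.61 CPM. Interstitial macrophage-like cells, where Fads2 counts as high against a median of 0 or near 0, had 1.11 and 1.72 CPM. Fads1, which acts after Fads2 and lies beside it on chromosome 19 (chr19:10182888-10196877, against chr19:10062765-10101746 for Fads2), was broader. It was at 30.6 and 19.1 CPM in plasmacytoid dendritic cell-like, 15.9 and 11.6 CPM in conventional dendritic cell-like and 17.7 and 14.4 CPM in interstitial macrophage-like cells.

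Elovl6, which elongates palmitate to stearate, had its highest level in T cells. It was at 102 CPM with PD-1 agonist and 98.7 CPM with isotype in CD4 T cell-like cells, 76.3 and 86.8 CPM in regulatory T cell-like cells, 68.9 and 40.2 CPM in CD8 T cell-like cells and 49.3 and 37.9 CPM in NK cell-like cells. Plasmacytoid dendritic cell-like cells had 54.6 and 65.3 CPM. B cell-like cells had 5.66 and 2.22 CPM, and neutrophil-like cells 1.93 and 1.30 CPM. Elovl6 was the gene of the 33 high in CD4 (7.37% of all genes) and in CD8 T cell-like cells (8.83%), with no other. Elovl5, which elongates polyunsaturated chains, was highest in type 2 innate lymphoid cell-like cells at 178 and 219 CPM and in regulatory T cell-like cells at 150 and 150 CPM.

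**Figure D3:**
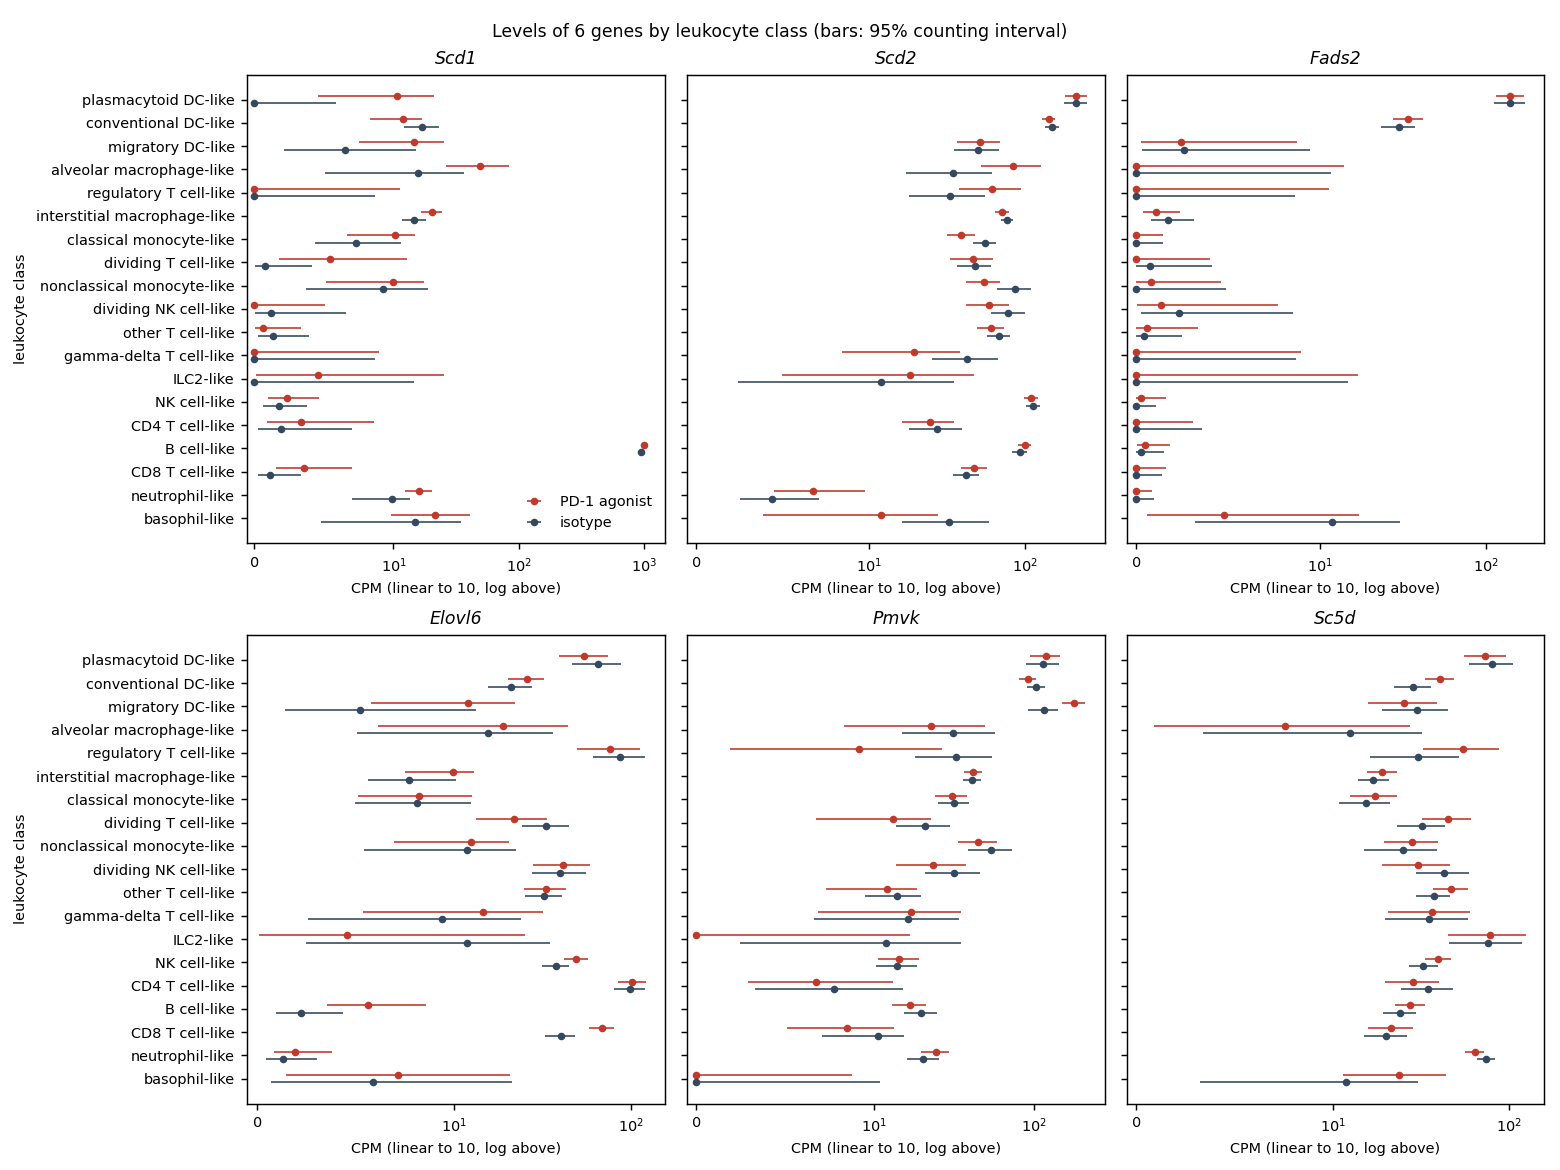
Levels of Scd1, Scd2, Fads2, Elovl6, Pmvk and Sc5d in CPM (horizontal, linear to 10 and logarithmic above) in each leukocyte class (vertical), with PD-1 agonist drawn above isotype and bars for the 95% counting interval. Scd1 reaches 997 and 941 CPM in B cell-like cells, Fads2 140 and 138 CPM in plasmacytoid dendritic cell-like cells, and Elovl6 102 and 98.7 CPM in CD4 T cell-like cells.

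The remaining classes had few of the 33 genes high. Type 2 innate lymphoid cell-like cells had 2 (Sc5d and Elovl5) against 5.02% of all genes, and NK cell-like cells 2 (Scd2 and Elovl6) against 9.92%. Dividing NK cell-like cells had 2 (Elovl6 and Fads1) against 9.59%, and dividing T cell-like cells 1 (Fads1) against 9.41%. Classical monocyte-like cells had 2 (Mvd and Msmo1) against 11.1%, and nonclassical monocyte-like cells 2 (Pmvk and Msmo1) against 9.12%. Alveolar macrophage-like cells had 3 (Mvd, Msmo1 and Scd1) against 8.3%, and basophil-like cells 1 (Scd1) against 6.0%. Stard4, which carries cholesterol between membranes, was high in no class and ranged from 1.45 CPM in neutrophil-like to 70.2 CPM in regulatory T cell-like cells with PD-1 agonist. With isotype it was at 2.86 and 42.2 CPM in those classes.

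Markers of other cells were present in the dendritic classes. The 9 B cell markers summed to 1926 CPM in PD-1 agonist and 1183 CPM in isotype plasmacytoid dendritic cell-like cells, against 12990 and 12995 CPM in B cell-like cells. Scd1, the gene of the 33 highest in B cell-like cells, was at 10.6 CPM and at 0 counts there. The 8 T cell markers summed to 102 and 131 CPM in plasmacytoid, 158 and 148 CPM in conventional and 111 and 185 CPM in migratory dendritic cell-like cells. Their part in the class differences was not tested.

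Genes of the same pathways outside the 33 gave fewer high calls. Of 16 further synthesis genes with enough counts, 4 were high in plasmacytoid dendritic cell-like cells, against 10.1% of all genes. In conventional ones 3 were high, against 11.0%, and in migratory ones 2, against 9.45%. Among the 4 in plasmacytoid ones were Tm7sf2, a sterol reductase, and Aacs, which activates acetoacetate. Of 10 genes for SREBP processing and sterol-regulated degradation, 1 was high in plasmacytoid (10.1% of all genes) and 2 in migratory dendritic cell-like cells (9.45%). These were Erlin1 and Erlin2 of the degradation machinery. Erlin1 was also high in conventional dendritic cell-like, B cell-like, classical and nonclassical monocyte-like and interstitial macrophage-like cells. Cholesterol uptake, storage and efflux genes had another order, with 9 of 15 high in alveolar macrophage-like cells, against 8.3% of all genes. Among these were the efflux pumps Abca1 and Abcg1 and the sterol receptor gene Nr1h3. In interstitial macrophage-like cells 8 of 15 were high (14.2% of all genes), including Lipa, the lysosomal lipase, and Soat1, which esterifies cholesterol. Plasmacytoid dendritic cell-like cells had 4 of 15 (10.1% of all genes), and conventional ones 1 of 15 (11.0%).

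The comparison of treatments asked whether any of these genes differed between PD-1 agonist and isotype cells. Over all kept cells, none of the 33 genes reached a log2 ratio of 0.5 in size, where 6.88% of all genes were past it in the higher and 3.29% in the lower direction. By sign alone 19 were higher and 14 lower with PD-1 agonist, with a median log2 ratio of 0.02, against -0.00 for all genes. Of all genes tested, 51.3% were lower. The 17 mevalonate and sterol genes summed to 383 CPM with PD-1 agonist and 382 CPM with isotype, a log2 ratio of 0.00 (-0.03 to 0.04). The largest ratio was that of Fads2, with 6.03 and 4.90 CPM and a log2 ratio of 0.30 (0.01 to 0.59). Scd1 had 119 and 99.5 CPM, a log2 ratio of 0.25 (0.19 to 0.32). Within B cell-like cells the Scd1 ratio was 0.08 (0.02 to 0.15), and B cell-like cells were 18.96% of the PD-1 agonist and 17.7% of the isotype cells. Plasmacytoid dendritic cell-like cells, where Fads2 was at 140 and 138 CPM, were 1.499% and 1.204% of the cells. The part of class shares in the Scd1 and Fads2 ratios was not tested. Elovl1 had the lowest ratio, with 42.7 and 49.996 CPM and a log2 ratio of -0.23 (-0.33 to -0.13).

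**Figure D4:**
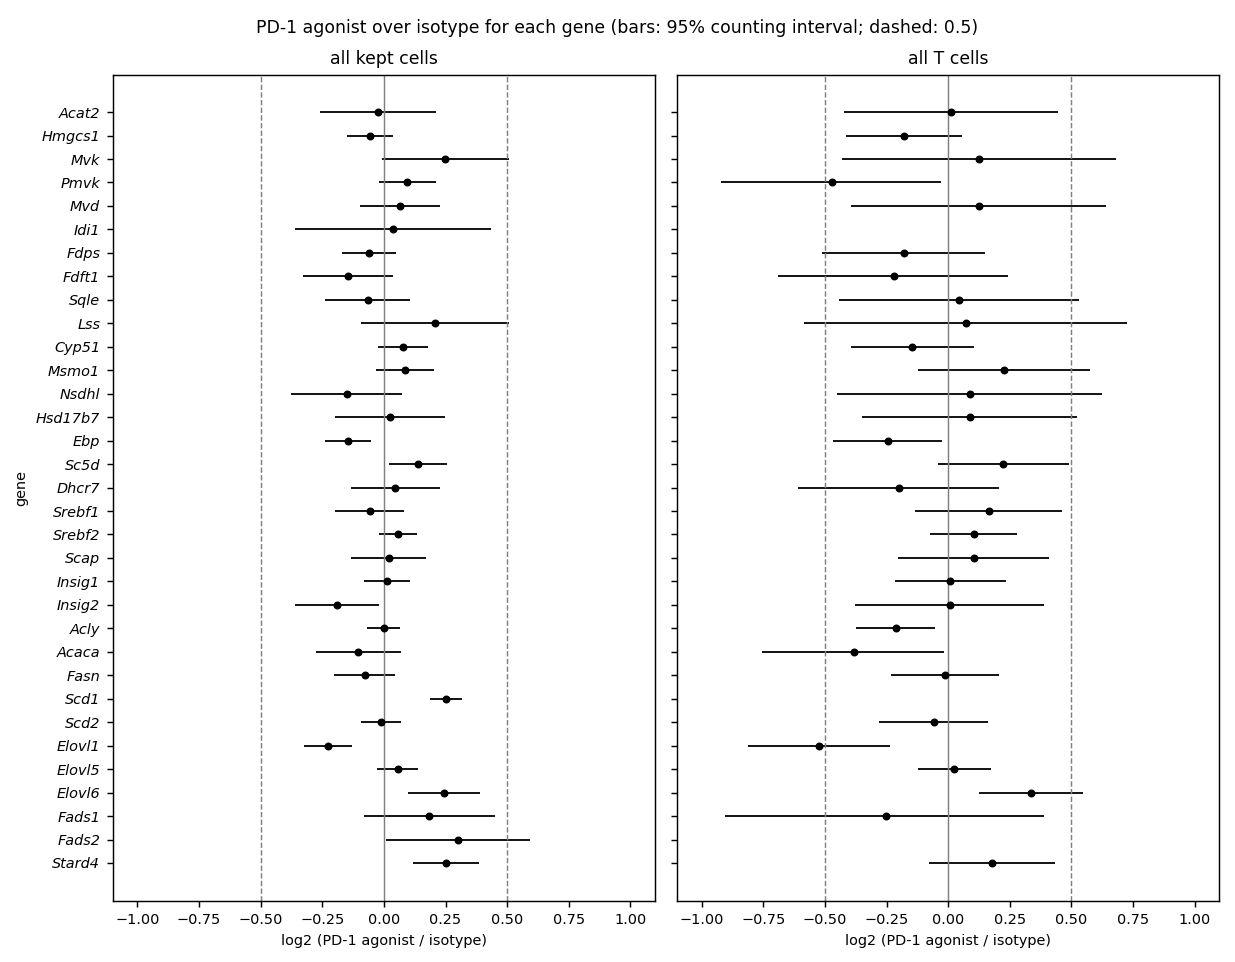
Log2 ratio of PD-1 agonist over isotype (horizontal) for each of the 33 genes (vertical) over all kept cells (left) and over all T cells (right), with 95% counting intervals and dashed lines at 0.5 in size; genes under 50 counts have no point. All points on the left lie between -0.23 and 0.30, and on the right Elovl1 lies at -0.52.

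In all T cells, 2226 with PD-1 agonist and 2342 with isotype, 30 of the 33 genes had at least 50 counts, and Idi1, Scd1 and Fads2 did not. One was past 0.5 in size, in the lower direction, where 4.17% of all genes were past it and 6.36% in the higher direction. This was Elovl1, at 23.9 CPM with PD-1 agonist and 34.3 CPM with isotype, a log2 ratio of -0.52 (-0.81 to -0.24). Without the second isotype table the ratio was -0.38. Elovl6 had 56.8 and 45.0 CPM, a log2 ratio of 0.34 (0.13 to 0.55). The intervals of 6 of the 30 genes left out 0 (20.0%), against 22.5% of all genes tested in T cells. Of these 6, Elovl6 was higher and 5 were lower, namely Acaca, Acly, Ebp, Elovl1 and Pmvk. The median log2 ratio of the 30 genes was 0.01, against -0.02 for all genes tested in T cells. The median counts per cell were 2467.5 with PD-1 agonist and 2824 with isotype, and the part of this depth difference was not tested.

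Among the T cell classes, CD8 T cell-like cells, the cytotoxic lineage, had the highest Elovl6 ratio of those with at least 50 counts. They had 68.9 CPM with PD-1 agonist from 154 counts and 40.2 CPM with isotype from 106 counts, a log2 ratio of 0.78 (0.41 to 1.15). In this class 3 of 21 genes tested were past 0.5 in size, 1 higher (5.99% of all genes) and 2 lower, Acaca and Fdps (7.0% of all genes). When each table was left out the number was 1 to 4, with 1 without the third isotype table, and the ratios ran from -0.63 to -0.40 for Acaca and from -0.70 to -0.29 for Fdps. The intervals of Acaca and Fdps included 0. CD8 T cell-like cells were made of a cluster led by Cd8b1 and Ccr7, with 499 PD-1 agonist and 397 isotype cells, and a deeper one led by Cd8a, with Nkg7 and Il2rb, with 258 and 349 cells. Elovl6 was higher with PD-1 agonist in both, at 71.7 CPM (57.1 to 88.9) and 40.8 CPM (29.3 to 55.4) in the first and at 66.1 CPM (51.6 to 83.3) and 39.8 CPM (30.7 to 50.7) in the second. The ratio of the class ranged from 0.57 to 0.87 over the processing alternatives. In CD4 T cell-like cells the level was 102 CPM with PD-1 agonist and 98.7 CPM with isotype, a log2 ratio of 0.04 (-0.35 to 0.44). In regulatory T cell-like cells the ratio was -0.18 (-0.98 to 0.59), in dividing T cell-like cells -0.61 (-1.45 to 0.18), in the T cells led by Xcl1 and Ifng 0.03 (-0.51 to 0.55), and in NK cell-like cells 0.38 (0.04 to 0.72). Whether the ratio differed between these classes was not tested. In CD8 T cell-like cells the 12 dividing-cell markers summed to 139 CPM with PD-1 agonist and 243 CPM with isotype, and the 9 NK cell markers to 267 and 347 CPM. Their part in the Elovl6 difference was not tested.

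**Figure D5:**
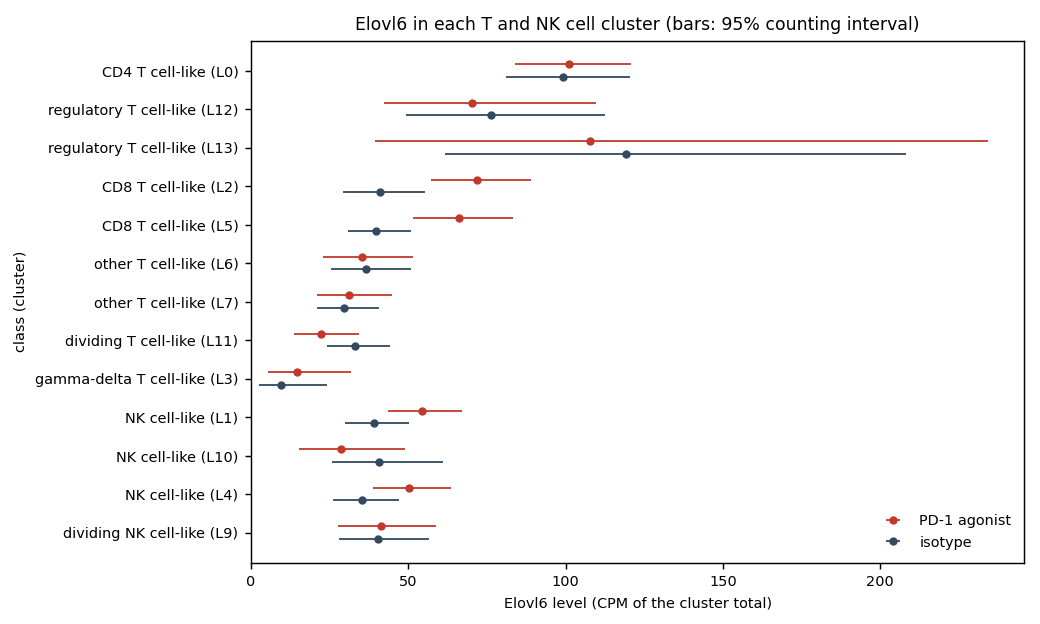
Elovl6 level in CPM of the cluster total (horizontal) in each T and NK cell cluster (vertical, named by class and cluster), with PD-1 agonist drawn above isotype and bars for the 95% counting interval. In the CD8 T cell-like clusters L2 and L5 the PD-1 agonist points, at 71.7 and 66.1 CPM, lie to the right of the isotype points, at 40.8 and 39.8 CPM.

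In the dendritic classes most genes were close between the libraries. In plasmacytoid dendritic cell-like cells 22 genes had enough counts, 9 of them higher and 13 lower, with a median log2 ratio of -0.03. Hmgcs1 was past 0.5 in the lower direction (6.67% of all genes), at 154 CPM with PD-1 agonist and 232 CPM with isotype, a log2 ratio of -0.59 (-0.95 to -0.23). Over the processing alternatives it ranged from -0.67 to -0.46. Fasn was past it in the higher direction (8.77% of all genes), with an interval of -0.04 to 1.44 around 0.68, and was at 0.14 without the second isotype table. In conventional dendritic cell-like cells 1 of 32 genes was past 0.5, Stard4 in the higher direction (7.94% of all genes higher and 4.41% lower), at 49.4 and 34.7 CPM, a log2 ratio of 0.51 (0.11 to 0.92) that was 0.12 without the second isotype table. In migratory dendritic cell-like cells 1 of 14 was past it, Pmvk in the higher direction (9.12% of all genes higher and 8.84% lower), at 178 and 115 CPM, a log2 ratio of 0.63 (0.24 to 1.03). When each table was left out, 1 to 3 genes were past it in conventional and 1 to 5 in migratory dendritic cell-like cells. The summed mevalonate and sterol level had log2 ratios of -0.12 (-0.25 to 0.01), -0.06 (-0.14 to 0.02) and -0.06 (-0.22 to 0.10) in plasmacytoid, conventional and migratory dendritic cell-like cells.

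In classical monocyte-like cells more genes were lower than higher. Of 21 genes tested, 15 were lower and 6 higher with PD-1 agonist, with a median log2 ratio of -0.23 against -0.02 for all genes in that class. Of all genes tested there, 53.5% were lower. Acaca, Cyp51, Fasn and Sqle were past 0.5 in the lower direction, where 5.95% of all genes were past it. The intervals of Acaca and Fasn included 0. Cyp51 was at 41.3 CPM with PD-1 agonist and 59.2 CPM with isotype, a log2 ratio of -0.52 (-0.90 to -0.15), and Sqle at 10.6 and 17.8 CPM, a log2 ratio of -0.75 (-1.50 to -0.03). Without the third PD-1 agonist table Cyp51 was at -0.39, and without the first PD-1 agonist table Sqle was at -0.38, neither of them past 0.5. The number past it was 3 to 7 when each table was left out. The summed mevalonate and sterol level was 363 and 414 CPM, a log2 ratio of -0.19 (-0.32 to -0.06). The adjoining unnamed cells led by Lyz2 and S100a8, 174 with PD-1 agonist and 221 with isotype, differed the other way, at 308 and 229 CPM with a log2 ratio of 0.43 (0.20 to 0.67). With both sets of cells pooled, an alternative added after these values were seen, the log2 ratio was 0.00.

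In B cell-like cells Hsd17b7, a sterol ketone reductase, was past 0.5 in the higher direction (5.78% of all genes), at 14.1 CPM with PD-1 agonist and 8.31 CPM with isotype, a log2 ratio of 0.77 (0.10 to 1.46). Without the first PD-1 agonist table it was 0.38, and over all alternatives it went as low as 0.17. Sqle and Elovl1 were past it in the lower direction (4.16% of all genes), at log2 ratios of -0.58 and -0.54. These ran from -0.71 to -0.48 and from -0.56 to -0.33 when each table was left out. The interval of Sqle included 0, and over all alternatives its ratio came as near to 0 as -0.29. In neutrophil-like cells Scd1 was at 15.9 and 9.89 CPM, a log2 ratio of 0.69 (0.09 to 1.30) that ran from 0.52 to 1.12 when each table was left out, the highest without the first isotype table. There 3 of 15 genes were past 0.5, against 7.99% of all genes higher and 7.36% lower, and 5 were past it whichever table was left out. In interstitial macrophage-like cells 0 of 30 genes were past it, against 7.77% higher and 4.1% lower.

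The other lymphocyte and monocyte classes had 1 to 4 genes past 0.5 in size or none. In CD4 T cell-like cells, with 13 genes tested, Scap was higher (7.56% of all genes) and Ebp lower (5.85%), both with intervals that include 0. In NK cell-like cells, with 24 tested, Dhcr7 was higher (6.6%) and Hsd17b7 lower (4.26%), also with intervals that include 0. In the T cells led by Xcl1 and Ifng, with 24 tested, Hsd17b7 was higher (6.53%) and Acaca, Hmgcs1 and Insig2 lower (5.75%). Of these, Hmgcs1 was at 30.6 CPM with PD-1 agonist and 46.8 CPM with isotype, a log2 ratio of -0.61 (-1.12 to -0.11) that was -0.43 without the second PD-1 agonist table. In dividing T cell-like cells, with 16 tested, Stard4 was higher (8.2%) and Elovl6 and Fasn lower (8.46%), Fasn at 41.5 and 65.3 CPM with a log2 ratio of -0.65 (-1.24 to -0.09). The intervals of Stard4 and Elovl6 there included 0. In nonclassical monocyte-like cells, with 14 tested, none was higher (9.4%) and Scd2 was lower (6.62%), at 54.0 and 85.8 CPM with a log2 ratio of -0.67 (-1.19 to -0.15). This was -0.27 without the first isotype table and -1.098 without the first PD-1 agonist table. In dividing NK cell-like cells, with 12 tested, Stard4 was higher (8.7%), with an interval that includes 0, and none lower (6.86%). In gamma-delta T cell-like cells, with 4 tested, none was higher (10.3%) and Ebp was lower (8.26%). In basophil-like cells the 1 gene tested, Elovl5, was lower (9.54%, against 11.6% higher), with an interval that includes 0. In regulatory T cell-like cells 0 of 7 were past it (8.63% higher and 9.73% lower), and in type 2 innate lymphoid cell-like cells 0 of 1 (15% and 12.4%).

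Genes of the same pathways outside the 33 were compared in the same way. Of the further synthesis genes, 1 of 16, Tm7sf2, was past 0.5 over all kept cells, in the lower direction (3.29% of all genes), and none in all T cells. In classical monocyte-like cells 4 of 13 were past it, all lower (5.95% of all genes), with a median log2 ratio of -0.28. In migratory dendritic cell-like cells 3 of 6 were, all lower (8.84%), with a median of -0.31. Each of the other classes compared had at most 1 of these genes past it in either direction. None of the SREBP processing genes or of the uptake and efflux genes was past it over all kept cells or in all T cells. Single classes did have such genes past it. In classical monocyte-like cells Sec23a and Abca1 were higher (6.88% of all genes), and in migratory dendritic cell-like cells Nr1h2 was higher (9.12%). In neutrophil-like cells Erlin2, Stard3 and Nceh1 were lower (7.36%). Some of the remaining classes also had genes of these lists past it, in both directions.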

How the data were processed

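The deposited tables hold 1 record per cell, with estimated counts per gene that the authors made, per the file headers, and that need not be whole (0.717% to 0.733% of values were not). Per the file headers, the authors also deposited for each cell its total count, its number of genes and its mitochondrial and ribosomal read percent. Partek and the mm10 assembly are named in the submitters' processing notes, with no version or role. Hashing reads were not used here, so cells were not assigned to mice.

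For each treatment each barcode was used once, with the record of highest total, which left 13728 barcodes for PD-1 agonist and 12448 for isotype, of which 12216 and 11106 have an entry in the authors' CD3e column. Those cells were taken as the ones that passed the authors' filter, and they hold 500 to 4000 and 500 to 3997 genes. Their treatment column calls the isotype cells untreated. Tables held 21556545 to 29749815 counts, and the kept cells 36193573 and 36702272. Scrublet (expected rate 0.1, threshold 0.25) removed 944 and 807 doublets, 7.73% and 7.27%. Cells were clustered in scanpy 1.11.5 with 2000 variable genes, 30 principal components, 15 neighbours and Leiden resolution 1, leaving the 33 genes out of the variable genes. T and NK cells were clustered again, which gave 30 clusters in all. Clusters were named from 27 marker lists with at least 3 markers, and the thresholds of the naming rule were chosen after the clusters had been seen. The members, pathway lists and markers were chosen with earlier results of these data known.

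Expected counts were summed per class and library and rounded, and totals scaled with TMM factors from edgeR 4.0.16 under R 4.3.3, which served no other purpose. Genes needed 50 counts over both libraries, and class ratios 50 cells in each. Ratios have Clopper-Pearson intervals and levels Poisson intervals (scipy 1.17.1). The ratio script was tested on simulated counts. No count model or test between treatments was run, since each treatment is 1 sample, and a count past 0.5 log2 is a description.

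Every gene of the 33 is accounted for. By rule, full values go to genes at least 2-fold high in a class in both libraries, or past 0.5 log2 between treatments with an interval that leaves out 0 in all kept cells or all T cells, up to 6 a class, and others are given by ranges and counts. Genes of other pathway lists follow the same rule, up to 4 a list. Genes named for a difference between treatments within a single class lie outside this rule. So do genes named with a ratio under 0.5 in size over all kept cells or all T cells. Both were chosen after their values were seen. Sequence sharing was computed from GENCODE transcripts of GRCm38, and promoter windows come from RefSeq. Alternatives covered other size factors and count minimums, doublets kept, no cell filter, another record per barcode, finer clustering, the 33 genes allowed among variable genes, and each table or top cell left out.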

Additional observations from a re-analysis of the deposited data

How the results depend on the processing

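The comparisons rested on 10 values, which were recomputed 155 times under the alternatives. Of these, 144 stayed within their interval or within 1.5 times the count, and 11 moved. The interval was the counting interval, except for median log2 ratios. For those it was the interval of the summed ratio of the same genes, moved to the median, which is not an interval of the median itself. A further 212 values were recomputed 3207 times, of which 175 moved. Over all kept cells 0 of the 33 genes were past 0.5 log2 under every alternative that was run. The number of genes high ranged from 20 to 23 in plasmacytoid, 16 to 18 in conventional and 9 to 12 in migratory dendritic cell-like cells.

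With the record of lowest total per barcode, the median log2 ratio of the 33 genes over all kept cells was -0.0067, and that of the mevalonate and sterol arms -0.026. Both medians were positive as reported, at 0.02 and 0.04. Leaving out each table in turn gave -0.0054 to 0.048 for the 33 genes and -0.055 to 0.058 for these arms. The number of genes past 0.5 log2 in all T cells was 0 with doublets kept, 0 with the record of lowest total, 2 with the 33 genes allowed among the variable genes, 4 with no filter on low counts, and 0 to 1 when each table was left out. Elovl1, the gene counted there, ranged from -0.59 to -0.38. For classical monocyte-like cells pooled with the unnamed cells led by Lyz2 and S100a8, chosen after the data were seen, the summed log2 ratio of the mevalonate and sterol arms was 0.0018. The causes of these shifts were not tested.

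No paired analysis was possible because the tables that carry the replicate numbers share cells within a treatment, so each treatment is 1 sample. Leaving out a table therefore removes part of the records of 1 pool and not an animal. Depth limits the rare classes most, with 56 PD-1 agonist and 71 isotype type 2 innate lymphoid cell-like cells and 1 of 33 genes with enough counts there.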
